A study of Homo sapiens with 8 samples.

Results

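The interferon-stimulated genes outside the IFIT family are described here in MDA-MB-231 cells, a human triple-negative breast cancer line, after exposure to cyclic di-GMP (c-di-GMP), a bacterial second messenger. They are 43 genes chosen by name, and 43 of 43 were found among the 16383 genes of the deposited count table. The deposited table of FPKM (fragments scaled by gene length and library size) listed 40 of them, without CMPK2, CCL5 and IFI44L. Bulk RNA was sequenced from 4 libraries of cells given 5 µM c-di-GMP for 24 h and 4 libraries of cells given PBS vehicle for the same time. Cells of both groups grew in DMEM with fetal bovine serum. Nothing in the labels ties the libraries to separate cultures. The p-values therefore measure a spread between libraries that may be only technical. The study's title places the action of c-di-GMP apart from STING, the cytosolic sensor of cyclic dinucleotides.

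Interferon-stimulated genes carry out much of the antiviral programme of a cell. Type I interferon binds a receptor whose kinases JAK1 and TYK2 phosphorylate STAT proteins, among them STAT2, which acts with IRF9 in the complex ISGF3, which binds a promoter element called the ISRE. Cyclic dinucleotides can enter this programme through STING, which leads to IRF3 and to interferon-beta. Many cancer lines keep part of the programme switched on at a low level without added interferon.

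The libraries held 16151360 to 18040010 counts each. Levels below are CPM (counts scaled to library size) on a common TMM scale, on which 3 counts correspond to 0.157 to 0.268 CPM depending on the library. Vehicle replicate 3 stood apart. The correlation of its log2 CPM with the other 7 libraries, across genes, was 0.853 to 0.871, against 0.991 to 0.996 among the other 7. Its values are given separately throughout, and each comparison was made with and without it. Among the line's mesenchymal markers, VIM had 138 to 148 FPKM in c-di-GMP libraries and 116 to 121 FPKM in vehicle replicates 1, 2 and 4, and AXL had 206 to 213 FPKM in c-di-GMP libraries and 225 to 241 FPKM in these vehicle libraries. The luminal receptor genes ESR1 and PGR were not listed in either table, but KRT8, KRT18 (85.0 to 86.6 FPKM with c-di-GMP, 76.2 to 82.5 FPKM with vehicle) and, at lower levels, EPCAM and CDH1 were present. Of the leukocyte and fibroblast genes, PTPRC, CD3E and DCN were not listed in either table. LYZ and LUM were listed only among the counts, at 0 to 16 and 3 to 11 counts a library. COL1A1 was low, at 1.61 to 1.85 FPKM in c-di-GMP libraries and 1.81 to 2.17 FPKM in the vehicle libraries. The myeloid marker CD14 was present at 5.39 to 6.61 FPKM in c-di-GMP libraries and 6.16 to 8.68 FPKM in these vehicle libraries, and its part in any result was not tested. In bulk RNA, a change in the number of expressing cells and a change in RNA per cell cannot be told apart.

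Promoter windows were read from RefSeq (GRCh38.p14, 250 bases before to 50 after each start) for 35 of the 43 members. IRF7, OAS2, OASL, USP18, MX2, IFITM2, TRIM22 and CCL5 had no entry. The core of the ISRE, the letters GAAA, then any pair of bases, then GAAA, was searched on both strands with overlapping matches counted. It occurred in 20 of 35 members (57.1%), against 2.96% of the windows of 10990 genes listed in the deposited tables. The letters TTCNNNGAA, the core of the GAS element of interferon-gamma responses, occurred in 11 of 35 members (31.4%), against 6.51% of the same windows. The 250 bases before the start are shown for HERC5 and IFITM3, which were higher in c-di-GMP libraries by both analyses below, and for ISG15 and BST2, whose outcome depended on the analysis. Capitals mark matches to this core on either strand (overlapping matches run together). The windows are chr4:88456869-88457118 on the plus strand for HERC5, chr11:320861-321110 on the minus strand for IFITM3, chr1:1013247-1013496 on the plus strand for ISG15 and chr19:17405631-17405880 on the minus strand for BST2, each written 5′ to 3′ along its gene.

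HERC5: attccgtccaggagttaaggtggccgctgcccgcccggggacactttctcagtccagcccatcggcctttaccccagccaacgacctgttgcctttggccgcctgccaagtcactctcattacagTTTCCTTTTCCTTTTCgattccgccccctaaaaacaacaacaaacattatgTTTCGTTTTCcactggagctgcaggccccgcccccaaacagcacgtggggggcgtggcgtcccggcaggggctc

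IFITM3: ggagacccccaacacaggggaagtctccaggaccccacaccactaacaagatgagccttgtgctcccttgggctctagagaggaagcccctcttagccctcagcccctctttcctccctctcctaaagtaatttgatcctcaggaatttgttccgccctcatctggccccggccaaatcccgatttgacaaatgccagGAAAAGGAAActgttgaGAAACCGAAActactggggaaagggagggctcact

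ISG15: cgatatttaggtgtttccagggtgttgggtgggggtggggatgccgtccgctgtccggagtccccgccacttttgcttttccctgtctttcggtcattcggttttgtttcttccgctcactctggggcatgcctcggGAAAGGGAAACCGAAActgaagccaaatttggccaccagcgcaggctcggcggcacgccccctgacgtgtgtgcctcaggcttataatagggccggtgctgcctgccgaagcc

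BST2: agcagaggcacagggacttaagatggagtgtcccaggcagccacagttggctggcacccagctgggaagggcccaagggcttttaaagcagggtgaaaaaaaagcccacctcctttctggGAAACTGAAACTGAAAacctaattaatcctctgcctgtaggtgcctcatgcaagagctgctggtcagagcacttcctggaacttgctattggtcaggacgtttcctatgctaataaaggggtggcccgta

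HERC5 had 3 matches, all on the strand opposite to the gene, beginning at positions -125, -119 and -74 relative to the start. ISG15 and BST2 each had a pair of overlapping matches on the gene's own strand, at -113 and -107 in ISG15 and at -130 and -124 in BST2. In IFITM3 the matches lay closer, at -52 and -35. A match is a string of letters and not evidence of a bound site. Of the 20 members with a match, 4 passed the threshold as higher in c-di-GMP libraries in the 7-library comparison below. Of the 15 without one, 4 did, as did 13.5% of all genes tested. Other spacings of the GAAA repeats were not searched. The windows of DDX58 and RSAD2, for example, were counted as without a match but hold GAAACGAAA.

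Levels in FPKM spread widely among the members. The gene length behind FPKM counts all exon bases of a gene, which can far exceed its principal transcript. It was 13047 against 3042 bases for MX2 and 4147 against 725 bases for IFI27, so the order of members depends on the length used. BST2 (tetherin, which holds budding virus particles at the cell surface) was the highest, at a mean of 134 FPKM in c-di-GMP libraries and 129 FPKM in vehicle replicates 1, 2 and 4. IFITM3, which blocks virus entry from endosomes, averaged 122 FPKM in c-di-GMP libraries and 108 FPKM in vehicle libraries, and ISG15, a ubiquitin-like protein conjugated to other proteins, averaged 99.7 FPKM in c-di-GMP libraries and 91.8 FPKM in vehicle libraries. These 3 genes lay well above all other members. ADAR, the adenosine deaminase that edits double-stranded RNA, followed at 30.2 FPKM in c-di-GMP libraries and 30.7 FPKM in vehicle libraries, and IFITM2 at 27.1 FPKM in c-di-GMP libraries and 24.3 FPKM in vehicle libraries. At the low end were IRF9 at 0.366 FPKM in c-di-GMP libraries and 0.397 FPKM in vehicle libraries, and MX2 at 0.406 FPKM in c-di-GMP libraries and 0.352 FPKM in vehicle libraries. The members together took 0.193% to 0.196% of the counts of c-di-GMP libraries and 0.181% to 0.188% of the counts of vehicle replicates 1, 2 and 4, so their summed level differed little between groups, while vehicle replicate 3 gave them 0.28%.

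**Figure D1:**
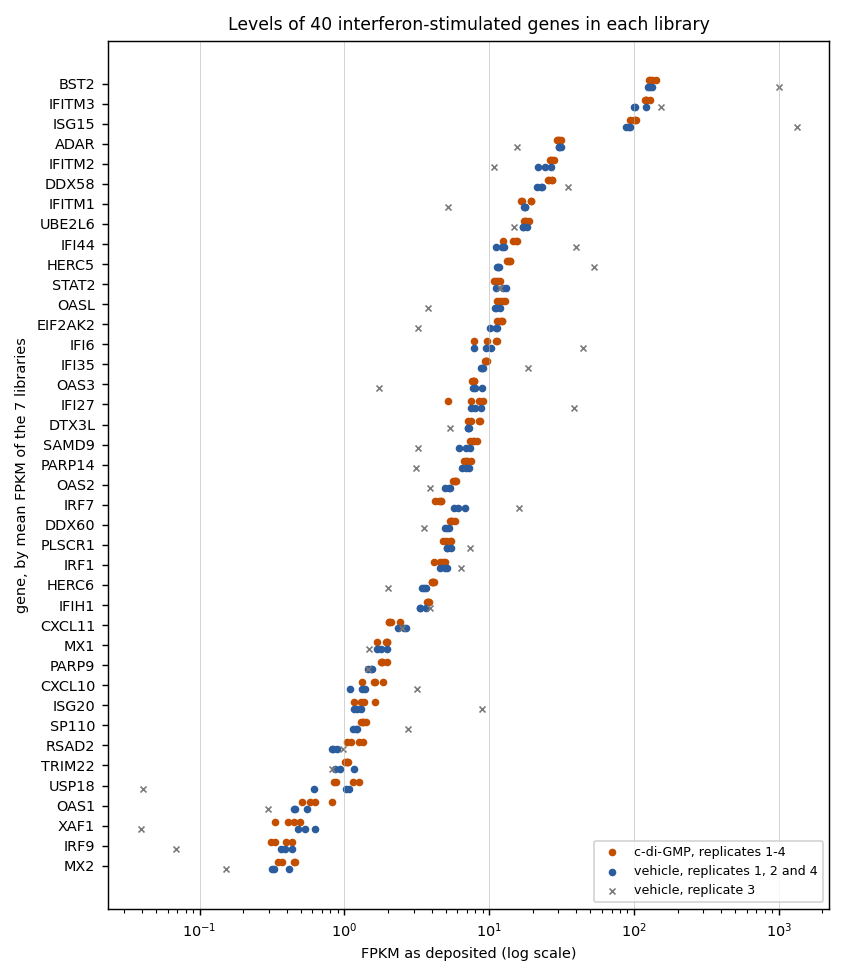
FPKM (log axis) of the 40 members in the FPKM table, one row per gene, in c-di-GMP libraries, in vehicle replicates 1, 2 and 4, and in vehicle replicate 3. BST2 (134 FPKM), IFITM3 (122 FPKM) and ISG15 (99.7 FPKM, means with c-di-GMP) lead, and vehicle replicate 3 lies far to the right for ISG15 (1329 FPKM).

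Over all 8 libraries, no member passed the test between c-di-GMP and vehicle. With edgeR (quasi-likelihood test, p-values adjusted over all genes by the Benjamini-Hochberg method), 0 of the 42 members tested passed an adjusted p of 0.05, and neither did any of 15415 genes (0.0%). CCL5 was too low to be tested there. At an unadjusted p under 0.05 stood IRF7, RSAD2 and PARP9, that is 3 of 42 members against 6.23% of all genes. DESeq2 passed 35 genes as higher and 99 as lower in the same libraries, none of them members, and limma-voom passed 0. The variation between replicates (biological coefficient of variation) was 36.3% with vehicle replicate 3 and 4.52% without it. Its inclusion also turned the sign of the fold change in 12 members. The comparisons that follow use 7 libraries, with 4 of c-di-GMP and 3 of vehicle. That choice was made with earlier results of these data known, and the calls below depend on it.

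In these 7 libraries a few members moved by small amounts and most did not pass the test. At an adjusted p of 0.05 in edgeR, 9 of 43 members passed in either direction, as did 29.6% of 15647 genes. Of these, 8 of 43 members were higher in c-di-GMP libraries (18.6%), where 13.5% of genes were, and 1 was lower (2.33%), where 16.2% of genes were. Those higher were DDX58, HERC5, HERC6, RSAD2, IFITM3, SAMD9, PARP9 and IFI44, and the lower one was IRF7. HERC5, DDX58, RSAD2, PARP9, IFI44 and IRF7 passed whichever of the 7 libraries was left out. The median log2 fold change of the members was 0.10, with 31 positive and 12 negative, against 0.0 over all genes (5th to 95th percentile -0.48 to 0.32). As fitted, the share of members higher was thus near that of all genes, and the share lower (2.33%) was below theirs (16.2%). Whether that difference is particular to the members was not tested. The 95% interval of the fold change lay within a 2-fold change either way for 41 members and within 1.5-fold for 33. The exceptions to the first were IFI44L, with 20 to 34 counts in each of the 7 libraries, and CCL5, with 5 to 13. In 10 members (23.3%) every c-di-GMP library lay above all of vehicle replicates 1, 2 and 4, as in 17.6% of genes, and in 1 (2.33%) below them, as in 18.1% of genes.

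A trend with base composition ran through the whole table, and it changed which members passed. Across 15643 genes the 7-library log2 fold change had a Spearman correlation of -0.59 with the GC content of the gene's longest transcript, and across the 43 members it was -0.38 (genes share the libraries and are not replicates). With this trend removed, 9 members again passed, against 15.2% of genes. Of these, 7 members were higher in c-di-GMP libraries (16.3%, against 8.59% of genes) and 2 were lower (4.65%, against 6.62% of genes). Those higher were ISG15, UBE2L6, HERC5, BST2, IFITM2, IFITM3 and IFI35, and those lower were CXCL11 and XAF1. HERC5 and IFITM3 were the 2 members higher by both analyses (4.95% of all genes were). The median of the members was then 0.09. Every c-di-GMP library lay above the vehicle libraries in 11 members (25.6%, against 12.8% of genes) and below in 3 (6.98%, against 10.6%). Whether the trend arose in the cells or in the libraries was not tested. The corrected fits treated the removed trend as known, so their p-values and intervals leave out its uncertainty.

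**Figure D2:**
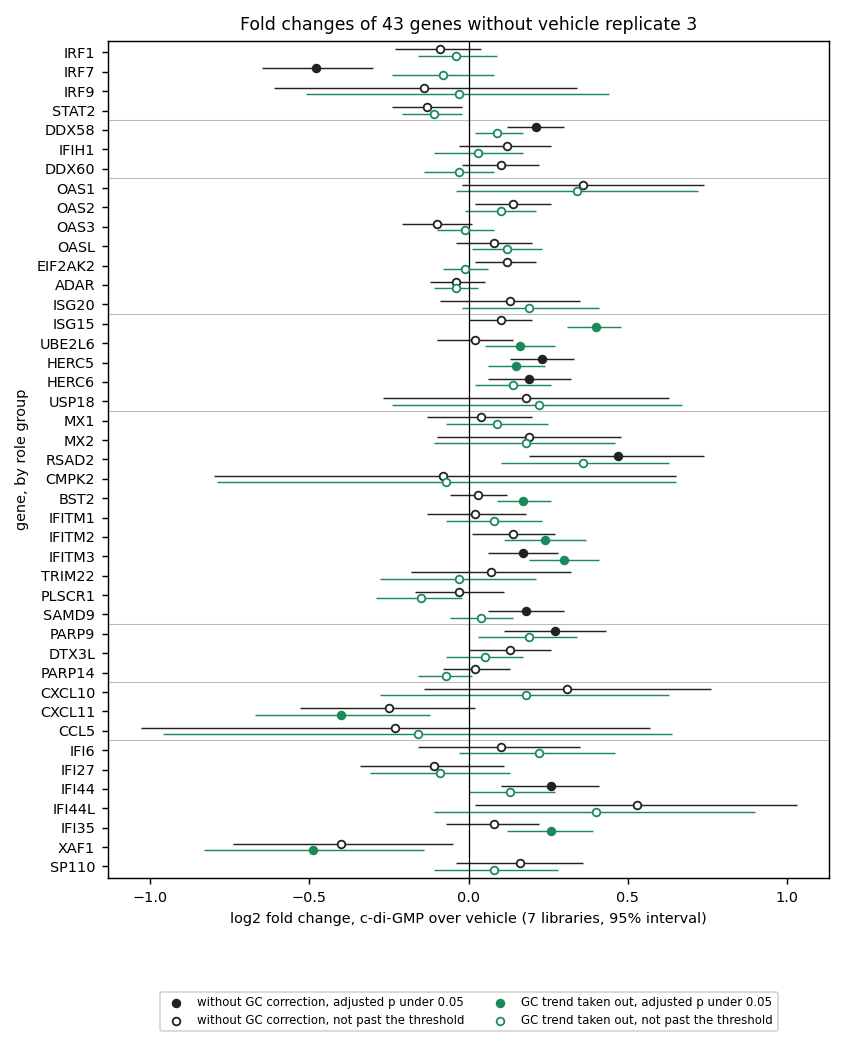
The log2 fold change of each member, c-di-GMP over vehicle, in 7 libraries without vehicle replicate 3, as fitted (with its 95% interval) and after the GC trend was removed. The uncorrected values run from -0.48 for IRF7 to 0.53 for IFI44L.

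HERC5 and HERC6 are neighbouring genes on chromosome 4. HERC5 is the main human ligase that attaches ISG15 to newly made proteins. HERC5 (ENSG00000138646, chr4:88457117-88506163) had 66.4, 62.8, 64.7 and 66.8 CPM in the c-di-GMP libraries, against 56.6, 54.3 and 55.3 CPM in vehicle replicates 1, 2 and 4, and 259.9 CPM in vehicle replicate 3. Every c-di-GMP library was above the 3 vehicle libraries and below the one set apart. The means were 65.2 ± 1.81 CPM with c-di-GMP (SD, n = 4) and 55.4 ± 1.17 CPM with vehicle (SD, n = 3), a log2 fold change of 0.23 ± 0.05 (SE, edgeR adjusted p = 0.00097). It was 0.15 ± 0.04 with the GC trend removed (edgeR adjusted p = 0.0175), a call lost on leaving out c-di-GMP replicate 1 or 4 or vehicle replicate 2 or 4 (0.13 to 0.15, edgeR adjusted p = 0.0565 to 0.0776). With all 8 libraries it was -0.71 ± 0.54 (edgeR adjusted p = 0.641). HERC6, its relative, had 23.3, 23.3, 24.1 and 23.9 CPM in c-di-GMP libraries, against 19.97, 21.3 and 20.9 CPM in the 3 vehicle libraries and 12.1 CPM in vehicle replicate 3. Here the c-di-GMP libraries were above all of the vehicle libraries, replicate 3 included. HERC6 had a log2 fold change of 0.19 ± 0.06 (edgeR adjusted p = 0.0296), and 0.14 ± 0.06 with the GC trend removed (edgeR adjusted p = 0.125). Leaving out c-di-GMP replicate 1, 3 or 4 or vehicle replicate 1 or 4 ended the call for HERC6 (0.17 to 0.19, edgeR adjusted p = 0.0545 to 0.0935).

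ISG15 itself did not pass as fitted and was higher after GC correction. ISG15 (chr1:1001138-1014540) had 93.7, 87.9, 95.9 and 98.4 CPM in the c-di-GMP libraries, against 89.5, 84.4 and 88.5 CPM in vehicle replicates 1, 2 and 4, and 1295 CPM in vehicle replicate 3. The groups overlapped, and the library set apart far exceeded every other. The log2 fold change was 0.10 ± 0.05 in 7 libraries (edgeR adjusted p = 0.116). ISG15 is GC-rich (63.4%), and with the trend removed its levels were 107, 104, 109 and 115 CPM in c-di-GMP libraries, against 77.5, 84.3 and 86.0 CPM in the 3 vehicle libraries. On this scale the groups did not overlap, the log2 fold change was 0.40 ± 0.04 (edgeR adjusted p = 5.95e-07), and it passed whichever of the 7 libraries was left out. UBE2L6, the conjugating enzyme that hands ISG15 to the ligase and a gene named after its values were seen, was also GC-rich (57.2%). It had a log2 fold change of 0.02 as fitted and 0.16 ± 0.06 with the trend removed (edgeR adjusted p = 0.0481). That call was lost on leaving out c-di-GMP replicate 3 or 4 or vehicle replicate 1 or 4 (edgeR adjusted p = 0.108 to 0.286). USP18, which removes ISG15, did not pass either way (0.18 and 0.22, edgeR adjusted p = 0.582 and 0.581).

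The transcription factors stood out by IRF7 alone. IRF7, the factor that amplifies interferon-alpha transcription, had 12.2, 12.2, 11.8 and 11.2 CPM in the c-di-GMP libraries, against 18.1, 15.2 and 16.1 CPM in vehicle replicates 1, 2 and 4, and 43.8 CPM in vehicle replicate 3. Every c-di-GMP library was below all of the vehicle libraries, as in 7.22% of all genes. Its means were 11.9 ± 0.468 CPM with c-di-GMP (SD, n = 4) and 16.5 ± 1.49 CPM with vehicle (SD, n = 3), a log2 fold change of -0.48 ± 0.08 (edgeR adjusted p = 0.000164). IRF7 is the most GC-rich member (66.8%). With the trend removed the libraries had 14.2, 14.96, 13.8 and 13.5 CPM with c-di-GMP and 14.9, 14.9 and 15.1 CPM with vehicle, and the log2 fold change was -0.08 ± 0.08 (edgeR adjusted p = 0.545). The corrected groups overlapped.

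Of ISGF3's own subunits among the members, STAT2 had 72.8, 68.1, 70.6 and 66.2 CPM in c-di-GMP libraries, against 77.0, 80.4 and 69.2 CPM in the 3 vehicle libraries and 75.5 CPM in vehicle replicate 3. Its log2 fold change was -0.13 ± 0.05 (95% interval -0.24 to -0.02, edgeR adjusted p = 0.0763), and the groups overlapped. Without vehicle replicate 4 it was -0.19 and passed (edgeR adjusted p = 0.0182). IRF9, the DNA-binding subunit, was low, at 1.64, 1.26, 1.49 and 1.18 CPM in c-di-GMP libraries, against 1.495, 1.41 and 1.67 CPM in the vehicle libraries and 3 counts in vehicle replicate 3. The interval of its log2 fold change ran from -0.61 to 0.34 (edgeR adjusted p = 0.702), so the data do not settle whether it changed within that range. Of its exon bases, 48.4% are shared on the same strand with AL136295.5, so its counts are uncertain. IRF1, which responds mainly to interferon-gamma, had a log2 fold change of -0.09 (edgeR adjusted p = 0.292).

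Of the 3 RNA sensors, DDX58 alone was higher as fitted, where 13.5% of all genes were. DDX58 encodes RIG-I, which recognises 5′-triphosphate RNA. It had 119, 111, 113 and 118 CPM in the c-di-GMP libraries, against 94.8, 101 and 102 CPM in vehicle replicates 1, 2 and 4, and 158 CPM in vehicle replicate 3. The c-di-GMP libraries lay above the 3 vehicle libraries and below the one set apart. The means were 115 ± 4.03 CPM with c-di-GMP (SD, n = 4) and 99.3 ± 3.93 CPM with vehicle (SD, n = 3), a log2 fold change of 0.21 ± 0.05 (edgeR adjusted p = 0.00114). It was 0.09 ± 0.04 with the GC trend removed (edgeR adjusted p = 0.0751). IFIH1, which encodes the long-RNA sensor MDA5, and DDX60 had log2 fold changes of 0.12 and 0.10 (edgeR adjusted p = 0.222 and 0.233).

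No enzyme acting on RNA passed by either analysis, 0 of 7 (of all genes, 29.6% as fitted and 15.2% with the GC trend removed). These are OAS1, OAS2 and OAS3, whose product 2-5A activates RNase L, with their relative OASL, the RNA-activated kinase EIF2AK2 (PKR), ADAR and the exonuclease ISG20. ADAR had 291, 305, 283 and 294 CPM in c-di-GMP libraries, against 307, 298 and 298 CPM in the 3 vehicle libraries and 156 CPM in vehicle replicate 3. Its groups overlapped, with a log2 fold change of -0.04 ± 0.04 (95% interval -0.12 to 0.05, edgeR adjusted p = 0.517). The other 6 ranged from -0.10 for OAS3 to 0.36 for OAS1, the nearest to the threshold being EIF2AK2 at 0.12 (edgeR adjusted p = 0.0599).

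Among 11 restriction factors, RSAD2, IFITM3 and SAMD9 were higher as fitted (27.3%, against 13.5% of all genes). With the GC trend removed, BST2, IFITM2 and IFITM3 were higher (27.3%, against 8.59% of all genes). RSAD2 (viperin), which makes a chain-terminating nucleotide, had 6.09, 5.03, 5.34 and 6.55 CPM in the c-di-GMP libraries, against 4.06, 4.33 and 4.04 CPM in vehicle replicates 1, 2 and 4, and 4.92 CPM in vehicle replicate 3. It is one of 4 members, with OAS2, HERC6 and PARP9, whose c-di-GMP libraries lay above all of the vehicle libraries, replicate 3 included, as did those of 6.86% of all genes. RSAD2 had a log2 fold change of 0.47 ± 0.13 (edgeR adjusted p = 0.0097), the largest among the members that were higher, and 0.36 ± 0.13 with the GC trend removed (edgeR adjusted p = 0.0603). CMPK2, the nucleotide kinase gene beside it, had 5 to 19 counts in c-di-GMP libraries. It had 14 to 16 counts in vehicle replicates 1, 2 and 4, and 12 counts in vehicle replicate 3. The log2 fold change of CMPK2 was -0.08 in 7 libraries (95% interval -0.80 to 0.65).

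IFITM3 (chr11:319669-327537) had 173, 161, 164 and 163 CPM in the c-di-GMP libraries, against 137, 164 and 139 CPM in vehicle replicates 1, 2 and 4, and 215 CPM in vehicle replicate 3. Vehicle replicate 2 lay within the c-di-GMP range. The means were 165 ± 5.43 CPM with c-di-GMP (SD, n = 4) and 147 ± 15.2 CPM with vehicle (SD, n = 3), a log2 fold change of 0.17 ± 0.05 (edgeR adjusted p = 0.0166). That call was lost without c-di-GMP replicate 1 or vehicle replicate 1 or 4 (0.12 to 0.14, edgeR adjusted p = 0.0582 to 0.12). With the GC trend removed the log2 fold change was 0.30 ± 0.05 (edgeR adjusted p = 0.000285), the groups no longer overlapped, and the call held whichever library was left out. IFITM2 had 41.4, 40.4, 43.7 and 41.8 CPM in c-di-GMP libraries, against 34.0, 41.6 and 38.3 CPM in the 3 vehicle libraries and 17.3 CPM in vehicle replicate 3. Its log2 fold change was 0.14 ± 0.06 (edgeR adjusted p = 0.106), or 0.21 without vehicle replicate 2 (edgeR adjusted p = 0.0177), and 0.24 ± 0.06 with the trend removed (edgeR adjusted p = 0.0113). Without vehicle replicate 1 the corrected value was 0.14 (edgeR adjusted p = 0.142). IFITM1 had a log2 fold change of 0.02. IFITM1 and IFITM2 share exon bases on the same strand (32.5% and 22.7% of each), so the division of reads between them is uncertain, and 21.3% of the exon bases of IFITM3 are overlapped on the opposite strand by AC136475.5.

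BST2 (chr19:17402939-17405648) had 143, 145, 160.1 and 151 CPM in c-di-GMP libraries, against 143, 150.0 and 146 CPM in vehicle replicates 1, 2 and 4, and 1166 CPM in vehicle replicate 3. The first 7 values overlapped, and the last was far above them. The log2 fold change was 0.03 ± 0.04 in 7 libraries (edgeR adjusted p = 0.631) and 0.17 ± 0.04 with the GC trend removed (edgeR adjusted p = 0.00538), or 0.12 without vehicle replicate 1 (edgeR adjusted p = 0.0583). SAMD9, a growth-limiting antiviral factor, had 53.1, 56.3, 50.7 and 54.5 CPM in c-di-GMP libraries, against 42.8, 51.1 and 47.9 CPM in the 3 vehicle libraries and 22.7 CPM in vehicle replicate 3. The third c-di-GMP library lay below the highest vehicle library. Its log2 fold change was 0.18 ± 0.06 (edgeR adjusted p = 0.0259), and 0.04 ± 0.05 with the trend removed (edgeR adjusted p = 0.65). The SAMD9 call was also lost without c-di-GMP replicate 1, 2 or 4 or vehicle replicate 1 or 4 (0.11 to 0.19, edgeR adjusted p = 0.0547 to 0.152). The dynamin-like GTPases MX1 and MX2 did not pass (0.04 and 0.19), nor did the ubiquitin ligase TRIM22 (0.07) or the phospholipid scramblase PLSCR1 (-0.03), by either analysis.

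PARP9, which forms a complex with the ubiquitin ligase DTX3L, had 16.1, 16.1, 17.6 and 16.3 CPM in the c-di-GMP libraries, against 13.1, 14.0 and 13.9 CPM in vehicle replicates 1, 2 and 4, and 13.4 CPM in vehicle replicate 3. All 4 vehicle libraries lay below all c-di-GMP libraries. For PARP9 the log2 fold change was 0.27 ± 0.08 (edgeR adjusted p = 0.0102), and 0.19 ± 0.07 with the GC trend removed (edgeR adjusted p = 0.0948). DTX3L, which shares a divergent promoter region with PARP9, and PARP14 beside them had log2 fold changes of 0.13 and 0.02 (edgeR adjusted p = 0.131 and 0.778).

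IFI44, a cytoplasmic antiviral protein gene, had 25.4, 31.8, 31.4 and 29.9 CPM in the c-di-GMP libraries, against 23.1, 26.0 and 25.2 CPM in vehicle replicates 1, 2 and 4, and 84.5 CPM in vehicle replicate 3. The first c-di-GMP library lay within the vehicle range. For IFI44 the log2 fold change was 0.26 ± 0.07 (edgeR adjusted p = 0.0104), and 0.13 ± 0.07 with the GC trend removed (edgeR adjusted p = 0.203). Its neighbour IFI44L, at 1.08 to 1.99 CPM in these 7 libraries, had the largest fold change of all members, a log2 value of 0.53 with an interval of 0.02 to 1.03 (edgeR adjusted p = 0.108). IFI44L thus did not pass, at 20 to 34 counts a library. IFI35, whose leucine-zipper protein pairs with NMI, named after its values were seen, had a log2 fold change of 0.08 as fitted and 0.26 ± 0.07 with the trend removed (edgeR adjusted p = 0.00983). Without vehicle replicate 1 the corrected IFI35 value was 0.21 (edgeR adjusted p = 0.0765). XAF1, a pro-apoptotic gene also named after its values were seen, had 3.28, 2.95, 2.72 and 2.20 CPM in c-di-GMP libraries, against 3.20, 3.55 and 4.20 CPM in the 3 vehicle libraries and 3 counts in vehicle replicate 3. The uncorrected groups overlapped. Its log2 fold change was -0.40 ± 0.17 as fitted (edgeR adjusted p = 0.0818) and -0.49 ± 0.17 corrected (edgeR adjusted p = 0.0495). The corrected call held only without c-di-GMP replicate 1 (-0.38 to -0.55 and edgeR adjusted p = 0.0553 to 0.24 without any other), and 38.3% of XAF1's exon bases are overlapped on the opposite strand by PRAL. The mitochondrial protein genes IFI6 and IFI27 and the nuclear body gene SP110 did not pass by either analysis (0.10, -0.11 and 0.16).

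Of the chemokine genes, CCL5 was close to the counting floor, and none of the 3 passed in the uncorrected comparison (29.6% of all genes did). CXCL10, which draws T cells through CXCR3, had 2.17, 1.91, 1.55 and 1.88 CPM in the c-di-GMP libraries, against 1.66, 1.57 and 1.29 CPM in the 3 vehicle libraries and 3.84 CPM in vehicle replicate 3. The groups overlapped, and the log2 fold change was 0.31 ± 0.22 (95% interval -0.14 to 0.76, edgeR adjusted p = 0.307). CCL5, which attracts T cells and monocytes, had 0.527, 0.656, 0.267 and 0.430 CPM in c-di-GMP libraries, against 0.694, 0.574 and 0.377 CPM in the vehicle libraries and 0.268 CPM in vehicle replicate 3. These are 3 to 13 counts a library, and the interval of the log2 fold change ran from -1.03 to 0.57. CXCL11, another CXCR3 ligand named after its values were seen, had a log2 fold change of -0.25 ± 0.13 (edgeR adjusted p = 0.161) and of -0.40 ± 0.13 with the GC trend removed (edgeR adjusted p = 0.0433). The corrected CXCL11 value was -0.34 to -0.39 and its edgeR adjusted p 0.0716 to 0.186 without c-di-GMP replicate 1, 2 or 4 or vehicle replicate 1 or 4.

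**Figure D3:**
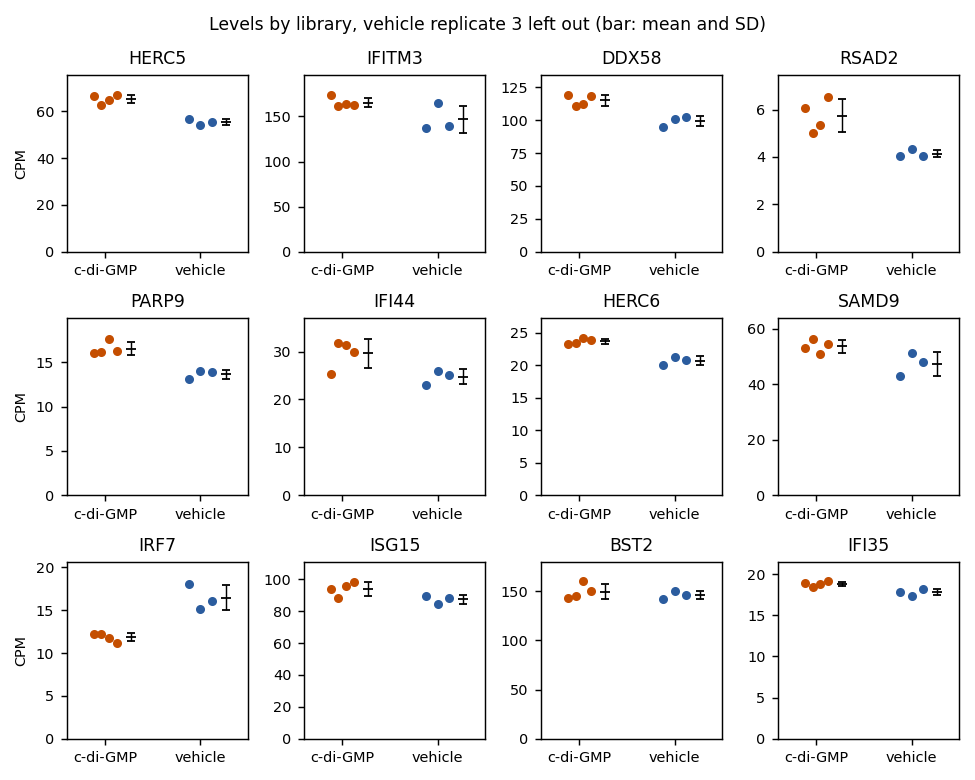
CPM of 12 members, one point per library, with c-di-GMP replicates to the left of vehicle replicates 1, 2 and 4 in each panel and bars for the mean and SD. HERC5, DDX58, HERC6, RSAD2, PARP9 and IFI35 show no overlap of the groups, with c-di-GMP above, and IRF7 shows none with c-di-GMP below.

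Grouped by base composition, the members that passed changed places. CXCL11, at 34.5% GC, lay below the lowest class and is not counted in these groups. Of 17 members with 35% to 45% GC, 6 were higher before the correction, as were 26.0% of all genes in that class, and 1 after it, as were 5.58% of those genes. Of 16 members with 45% to 55% GC, 1 was higher before (9.17% of genes in that class) and 0 after (9.21%). Of 9 members with 55% to 67% GC, 1 was higher before (2.08% of genes in that class) and 6 after (12.2%). In the lowest class the members' median log2 fold change was 0.16 before and 0.05 after, against 0.11 and 0.0 over all its genes. In the highest class it was 0.08 before and 0.22 after, against -0.21 and -0.01 over all its genes. The median of the GC-rich members thus lay above that of all GC-rich genes in both analyses, and the median of the AT-rich members lay near that of its class.

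**Figure D4:**
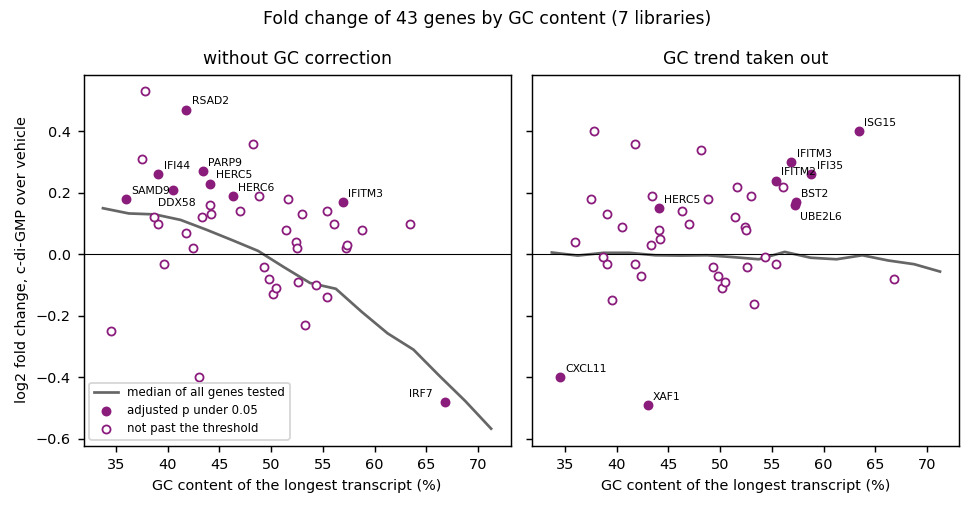
The log2 fold change of the 43 members (points, filled at an adjusted p under 0.05) and the median of all genes (line), c-di-GMP over vehicle in 7 libraries, against the GC content (%) of the longest transcript, before (left) and after (right) the trend was removed. ISG15 (63.4% GC) moves to 0.40 and IRF7 (66.8% GC) to -0.08 after the correction.

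Vehicle replicate 3 exceeded all other 7 libraries in 18 of 43 members, as in 41.6% of all genes, and was below all of them in 20, as in 45.8% of all genes. Its departure was thus about as frequent in the members as in the table as a whole. Over the mean of the other vehicle libraries it was 14.8-fold higher for ISG15, 7.98-fold for BST2, 7.45-fold for ISG20, 4.96-fold for IFI6, 4.88-fold for IFI27 and 4.69-fold for HERC5. USP18, XAF1, IRF9 and CCL5 had at most 3 counts in it. Among the members above that floor, the lowest ratios were 0.217-fold for OAS3, 0.302-fold for IFITM1, 0.305-fold for EIF2AK2 and 0.343-fold for OASL. These genes of one programme thus moved in opposite directions in that library. Shorter transcripts were higher in it: the median log2 ratio to the other 7 libraries was 1.35 for the 6 members under 1000 bases and -0.92 for the 9 members of 4000 bases or more. All genes of these length classes had medians of 0.83 and -0.62. Across genes, Spearman's rho between this ratio and transcript length was -0.43 for the 43 members and -0.34 for 15647 genes. Several members did not follow the medians of their classes. Among them were IFITM1 and IFITM2, both under 1000 bases, HERC5 and IRF7, at 2000 to 4000 bases, and DDX58 and IFI44L, at 4000 bases or more.

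**Figure D5:**
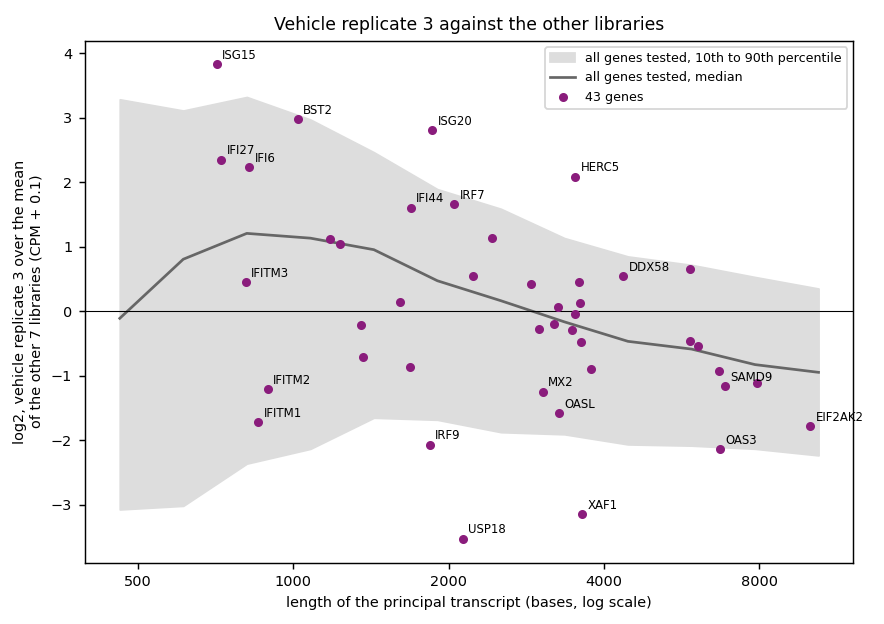
The log2 ratio of vehicle replicate 3 to the mean of the other 7 libraries for each member against the length of its principal transcript in bases (log axis). ISG15 and BST2 lie high among the short transcripts, and OAS3 and EIF2AK2 lie low among the long ones.

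Of 28 other genes of the interferon pathway, 19 were listed in the count table and 18 could be tested. None of the 9 ligand genes, IFNB1 among them, was listed there, and no gene in the counts as deposited totalled under 55 over the 8 libraries. In 7 libraries 2 of these genes were higher (11.1%, against 13.5% of all genes) and 3 were lower (16.7%, against 16.2% of all genes) in edgeR, so their shares were near those of the whole table. With the GC trend removed 0 were higher (8.59% of all genes) and 1 was lower (6.62% of all genes). The receptor chain IFNAR1 (0.17 ± 0.05) and the phosphatase PTPN2, an inhibitor of JAK signalling (0.23 ± 0.05), were higher in 7 libraries and did not pass with the trend removed (0.08 and 0.11). The kinase TYK2 (-0.32 ± 0.05) and the feedback inhibitor SOCS1 (-0.45 ± 0.12) were lower and did not pass with the trend removed (-0.08 and 0.01). MAVS, the mitochondrial adaptor that carries the RIG-I signal, averaged 239 ± 5.24 CPM with c-di-GMP (SD, n = 4) and 272 ± 14.1 CPM with vehicle (SD, n = 3). It was lower by both analyses (-0.19 ± 0.04 and -0.14 ± 0.03, edgeR adjusted p = 0.00132 and 0.00328), opposite in direction to DDX58.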

How the data were processed

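RNA-seq libraries of MDA-MB-231 cells were made from total RNA with the NEBNext Ultra RNA kit, per the labels' protocols, which do not state whether strand was kept. The deposited count table holds raw read counts per gene. The deposited FPKM table holds length- and depth-normalised values made by the authors. Per the submitters' processing notes, HISAT2 2.0.5 and featureCounts 1.5.0-p3 were among the tools, together with fastp, CASAVA 1.8 and DESeq2 1.20.0, with no order or role given. The notes also name a mouse build, mm10, but the gene identifiers are human and all 18059 match GENCODE v29 positions. Each table lists 16383 genes, 14707 of them in both.

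The groups come from the sample titles. The main test was edgeR 4.0.16 (R 4.3.3, quasi-likelihood, TMM, filterByExpr) on counts, fitted to all genes with Benjamini-Hochberg adjustment, over 8 libraries and over 7 without vehicle replicate 3. CPM values are on the TMM scale of all 8 libraries. The GC correction fitted a lowess curve (span 0.3) of each library's deviations on the GC content of the longest GENCODE v29 transcript and entered it as an offset. Alternatives were DESeq2 1.42.0, limma-voom (limma 3.58.1), DESeq2 size factors, no filter, a mean of at least 1 CPM, a replicate block, limma on log2(FPKM + 1) and log2(FPKM + 0.1), and each library left out. Library totals without TMM, the block with the GC correction and the GC-corrected fits with a library left out were added after the data were seen. The fits were tested on simulated data that held no outlying library and no GC trend. That test therefore could not check how the fits handle either.

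The members, the pathway list and the tests were chosen with earlier results of these data known. One gene of the pathway list is not reported here and was left out of its counts. Values by library are given for members past the adjusted threshold of 0.05 in either fit, for the 5 members with the highest mean FPKM, and for IRF7, IRF9, STAT2, ISG15, CXCL10 and CCL5. UBE2L6, IFI35, CXCL11 and XAF1 were added after their values were seen. Promoters were taken from RefSeq (GRCh38.p14). Between any pair of libraries the counts differed beyond counting noise (lowest chi-square per degree of freedom, 1.74). Intervals of fold changes come from edgeR and include the spread between libraries, and the floor of 3 counts covers counting error only.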

Additional observations from a re-analysis of the deposited data

Results flagged for a closer look

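Within the 4 vehicle libraries, replicate 3 lay far from the other 3 in 21 members by Dixon's criterion. Chance flags about 1 in 20 groups, and 86 groups were examined, all of them of members. Over all genes, replicate 3 lay above all other 7 libraries in 41.6% and below all of them in 45.8%, so its departure was not particular to the members. It was the high library for ISG15 (1295 CPM), BST2 (1166 CPM), HERC5 (259.9 CPM), IFI27 (165 CPM), DDX58 (158 CPM), IFI44 (84.5 CPM), ISG20 (68.4 CPM), IRF7 (43.8 CPM), IFI6 (40.1 CPM), IFI35 (37.9 CPM), PLSCR1 (33.3 CPM), SP110 (19.5 CPM), CXCL10 (3.84 CPM) and IFI44L (2.32 CPM). It was the low library for ADAR (156 CPM), EIF2AK2 (36.1 CPM), DTX3L (32.5 CPM), OAS3 (14.8 CPM), OASL (13.9 CPM), HERC6 (12.1 CPM) and IFITM1 (5.81 CPM). In the c-di-GMP group, MX1 was low in replicate 1 (14.5 CPM) and PARP9 was high in replicate 3 (17.6 CPM).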

How the results depend on the processing

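Among members, 8 higher and 1 lower in 7 libraries became 5 to 10 higher and 1 to 2 lower when a library was left out, with 5 higher without c-di-GMP replicate 1 and 5 higher with 2 lower without vehicle replicate 4. Removing the GC trend gave 2 lower. GC-corrected counts ranged from 3 to 9 higher and 0 to 1 lower, with 3 higher without vehicle replicate 1. In 8 libraries the counts were 0 to 8 higher and 0 to 1 lower, above 0 without vehicle replicate 3. There, leaving out a library spanned log2 fold changes of -2.38 to 0.10 for ISG15, -1.70 to 0.032 for BST2, -0.92 to 0.23 for HERC5, -0.60 to 0.26 for IFI44, -0.30 to 0.31 for CXCL10, -0.14 to 0.34 for IRF9, -0.061 to 0.21 for DDX58, -0.062 to 0.17 for IFITM3 and -0.038 to 0.23 for ADAR. BST2 in 7 libraries spanned -0.0010 to 0.049. Signs turned in 8 libraries for STAT2 (0.018) and CXCL10 (0.12) with library totals, which moved the median of all genes to 0.08 from -0.05, for CXCL10 with limma-voom (0.039) and for DDX58 with the GC trend removed (-0.10, and -0.068 with the replicate block). They turned in 7 libraries for BST2 with the replicate block (-0.0010) and CCL5 with block and GC correction (0.048). The cause was not tested. Same-numbered libraries showed no clear shared deviation (correlations of -0.0088 to 0.0152 in 7 libraries and -0.0578 to 0.184 in 8). These are deviations from means of few libraries, so the values cannot exclude a pairing. The replicate block passed 9 members as higher and 1 as lower, and 1788 genes higher and 2305 lower against 2106 and 2527 without it. With block and GC correction 918 and 681 genes passed, against 1343 and 1036. HERC6 did not pass with DESeq2 (adjusted p = 0.0598) or the block (adjusted p = 0.0685), and SAMD9, IFITM3 and IFI44 did not pass on FPKM. STAT2 passed as lower without vehicle replicate 4 and IFITM2 as higher without vehicle replicate 2. CCL5 and CMPK2, with under 20 counts a library, have wide intervals.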
